A study of Mus musculus with 22 samples.

Results

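Microglia of mice that had been exposed to Gulf War chemicals and later given cannabidiol were compared with microglia of control mice for how far each gene moved 24 h after lipopolysaccharide (LPS). For each gene the LPS-minus-PBS difference in the cannabidiol-treated exposed mice was taken, and the same difference in control mice was subtracted from it. This difference between responses used 15 of the 22 libraries in the count table and 16554 tested genes. A negative value means a smaller rise (or a larger fall) in the cannabidiol-treated exposed mice, and a positive value a smaller fall (or a larger rise). Responses and their differences are log2 values, with ± SE from the fit, while levels are CPM, counts scaled to a common library total, with ± SD over libraries.

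All mice were male C57BL/6J. The exposure began at 10 weeks of age and lasted 10 days, with daily intraperitoneal doses of 2 agents, the acetylcholinesterase inhibitor pyridostigmine bromide at 0.7 mg/kg and the insecticide permethrin at 200 mg/kg. Control mice received the vehicle instead, and all mice were aged to 17.5 months. Cannabidiol (CBD), in 5% Tween 80 and PBS, followed at a dose of 30 mg/kg, first daily over 28 days and then on every second day over 2 weeks. LPS (0.33 mg/kg, from Escherichia coli) or PBS was injected 24 h before the brains were taken. Microglia were sorted as live cells with mid CD45, with CD11b and without CD11a. Control mice make up the groups Ctrl-PBS and Ctrl-LPS (n = 4 each). Exposed mice that received CBD make up GW-CBD-PBS (n = 3, numbered 2 to 4 here after the library names) and GW-CBD-LPS (n = 4). Exposed mice without CBD (GW-PBS, n = 4, and GW-LPS, n = 3) entered the fit for its spread, and their responses are given only beside the others. The arms differ in both exposure and CBD, and unexposed mice that received CBD were not analysed here. Exposure and CBD cannot be told apart from the difference between these arms alone. The labels do not say whether a library came from 1 mouse, so the p-values measure the spread between libraries. In these sorted bulk samples fewer cells of a type and less RNA per cell cannot be told apart.

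LPS is a lipid and sugar component of the bacterial outer membrane that is bound by Cd14 and the Tlr4 and Ly96 receptor complex. Its signal runs through the adaptor Myd88 to NF-kB and through a second adaptor to interferon genes, and inhibitors such as Nfkbia and Socs3 are induced as feedback. Microglia that respond to it raise receptors for complement and antibody, scavenger receptors and cytokines, and lower genes of the resting state such as P2ry12. Cannabidiol is a cannabinoid of the hemp plant without the intoxicating action of tetrahydrocannabinol.

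The libraries held between 28676930 and 40458326 counts. The microglial markers summed to 23525 to 51156 CPM, and the neuronal markers to 1.34 to 5.96 CPM. Neutrophil markers stood apart in 2 of the compared libraries, with 27814 CPM in Ctrl-PBS replicate 3 and 2817 CPM in Ctrl-LPS replicate 1 against 4.71 to 173 CPM in the other 13. The monocyte markers did so too, with 2474 and 731 CPM against 9.38 to 41.3 CPM. Erythroid markers ran from 143 to 1431 CPM, with a median of 648 CPM in Ctrl-PBS, 189 CPM in Ctrl-LPS, 308 CPM in GW-CBD-PBS and 359 CPM in GW-CBD-LPS. All 9 erythroid markers had a positive difference between responses (median 2.27), 6 with an unadjusted p under 0.05, and 0 passed in edgeR, DESeq2 or limma-voom. Endothelial markers had 7 of 8 positive (median 1.52, 4 with an unadjusted p under 0.05), oligodendrocyte markers 8 of 9 (median 0.65, 2) and astrocyte markers 5 of 8 (median 1.17, 2), and 0 passed in edgeR. DESeq2 called 1 endothelial and 1 astrocyte marker, and limma-voom 2 in each of the 3 lists. The part of these cells in the positive differences was not tested. The T, NK and B cell list fell to 296 to 563 CPM in Ctrl-LPS against 920 to 1122 CPM in the other 11 compared libraries, most of it in the immunoglobulin gene Ighm, and was at 201 to 720 CPM in GW-LPS, while the T cell gene Cd3e was at 0 in 9 of 15 libraries. GW-CBD-LPS replicate 3 lay near the PBS libraries. Over the 1785 genes that rose with LPS in control mice it sat a median of 0.07 above the mean of its PBS group. The other 3 libraries of its group were at 0.16 (replicate 1) to 0.33. The GW-CBD-PBS libraries, each set against the others of that group, were at -0.06, 0.11 and -0.05.

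In control mice 1785 genes rose (10.8% of those tested) and 1593 fell (9.62%) with LPS, together 20.4%. In the CBD-treated exposed mice 65 rose (0.393%) and 4 fell (0.0242%), together 0.417%, and 1821 genes (11.0%) had an unadjusted p under 0.05. These counts are from edgeR's quasi-likelihood test, and the second depends on the tool. Of the 16554 genes tested DESeq2 called 344 in the CBD-treated exposed mice and limma-voom with library weights 3779. Without GW-CBD-LPS replicate 3 this arm had 260 genes past the threshold, and without any 1 of the GW-CBD-PBS libraries it had 0. Of the genes called in both arms 38 moved the same way, which is 1.12% of the control list and 55.1% of the other. In the PBS libraries 0 genes differed between the arms in edgeR's quasi-likelihood test (smallest adjusted p = 0.306), with 923 (5.58%) at an unadjusted p under 0.05, while DESeq2 called 7 and limma-voom 15. In the LPS libraries 1154 genes were higher (6.97%) and 1177 lower (7.11%) in the CBD-treated exposed mice, and 2480 genes (15%) had no overlap between these groups in CPM.

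The difference between responses itself passed the threshold, an adjusted p under 0.05 in edgeR, in 327 genes (1.98%), and 2569 genes (15.5%) had an unadjusted p under 0.05, 8.54% with a positive and 6.98% with a negative value. Of the 16554 genes tested DESeq2 called 888 and limma-voom 2194, the background for the list counts of these tools, with 325 and 323 of the 327 among them. It was negative in 170 (1.03%) and positive in 157 (0.948%). All 170 negative genes were higher with LPS in control mice, 168 of them past the threshold. In the CBD-treated exposed mice 102 of these were higher and 68 lower with LPS. Their median response was 1.14 in control mice and 0.09 in the CBD-treated exposed mice, and the median difference between the arms without LPS was 0.09. Of the 157 positive genes 156 were lower with LPS in control mice, with medians of -1.66 and -0.12. In the CBD-treated exposed mice 58 of the 157 were higher with LPS. All 327 genes were chosen by the difference between the responses of these arms. Their signs and medians in each arm therefore follow partly from that choice and are a description only. Over all genes tested the median difference between responses was 0.03. In exposed mice without CBD the median response was 0.77 over the negative and -1.19 over the positive genes. It lay between the responses of the other arms in 156 of the 170 and 133 of the 157, a description of genes chosen for the distance between those arms. Over all genes tested 47.2% had a negative difference, the background for the sign counts of gene lists. For the edgeR calls of the lists the background is 1.98% for the difference. For control mice it is 10.8% for a rise and 9.62% for a fall with LPS.

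The number of calls moved with single libraries. It was 122, 105 and 108 without GW-CBD-PBS replicate 2, 3 and 4, 166 without GW-CBD-LPS replicate 1 and 200 without replicate 3. It was 188 and 214 without Ctrl-PBS replicate 1 and 4, and 510 without Ctrl-LPS replicate 3. Of the 327 genes 81 passed in each of the 15 fits that left out 1 library, 49 negative and 32 positive. With the 3 libraries of raised neutrophil signal left out (GW-PBS replicate 1 is the third) 255 genes passed, 202 of them among the 327. Of the named genes Cxcl13, Ddit4, Fcgr2b, Fcgr3, Fcgr4, Ifi204, Hmox1, Nop56, Serpine2, Dbp, Tef, Ccne2, Bub1, Mad2l1 and Pclaf lost their calls in that fit, with adjusted p from 0.0502 (Ddit4) to 0.106 (Bub1), and Slfn2 gained one (-1.19, adjusted p = 0.0165).

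**Figure D1:**
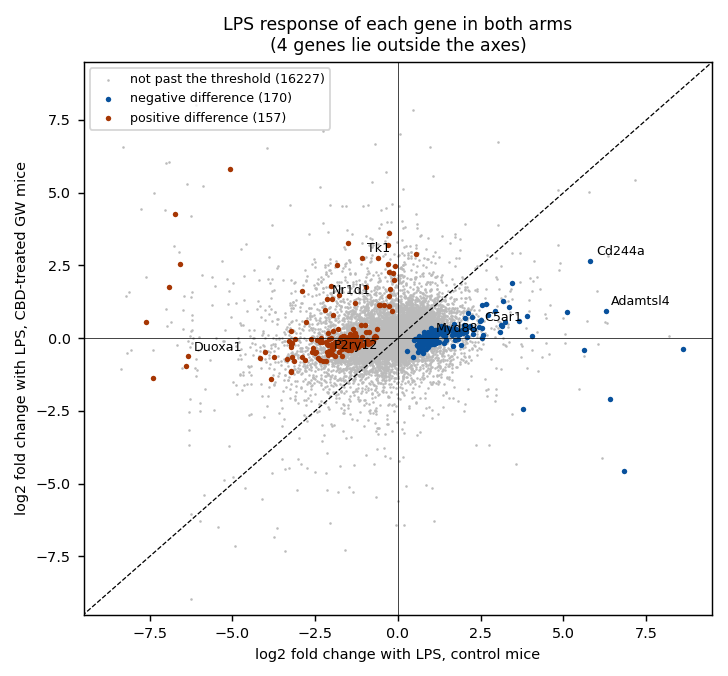
Log2 fold change with LPS in control mice (x axis) and in CBD-treated GW mice (y axis), 1 point per tested gene, with the 170 genes of negative and the 157 of positive difference between responses in colour and the dashed line where both responses are equal. The coloured genes lie mostly near 0 on the y axis, with medians of 0.09 and -0.12, and far from 0 on the x axis, with medians of 1.14 and -1.66. They were chosen by the difference between the plotted responses, so their position follows partly from that choice.

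Among the genes of LPS sensing, the adaptor gene Myd88 (ENSMUSG00000032508, GRCm38 chromosome 9, 119335934 to 119341411 in GENCODE M21) had the only difference past the threshold of the 24 genes tested. Its level was 136, 134, 138 and 118 CPM in Ctrl-PBS and 282, 242, 250 and 260 CPM in Ctrl-LPS. It was 119, 129 and 128 CPM in GW-CBD-PBS and 123, 128, 129 and 132 CPM in GW-CBD-LPS. Every Ctrl-LPS library lay above the 11 others, and the GW-CBD-LPS libraries lay within the range of the PBS libraries. The responses were 0.98 ± 0.09 and 0.03 ± 0.10, and their difference was -0.94 ± 0.13 (adjusted p = 0.00119), called in all 15 fits that left out 1 library. In exposed mice without CBD the response was 0.70 ± 0.09. Over the LPS sensing list the median response was 0.15 in control mice, where 6 genes rose, and -0.07 in the CBD-treated exposed mice, where 0 passed in edgeR, 1 had an unadjusted p under 0.05, and DESeq2 and limma-voom called 1 and 2. For the difference between responses, 5 negative values and 1 positive value of this list had an unadjusted edgeR p under 0.05. DESeq2 called the difference in 2 genes of the list and limma-voom in 3.

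The stretch before the start of Myd88 is printed because the gene sits at the head of the pathway and its call held in every fit. It holds a match to the interferon element (GAAA, any 2 bases, GAAA), in capitals, whose first base lies 40 bases before the start. The sequence is from RefSeq (GRCm38.p6, chr9:119340019-119340268, minus strand).
Myd88 promoter: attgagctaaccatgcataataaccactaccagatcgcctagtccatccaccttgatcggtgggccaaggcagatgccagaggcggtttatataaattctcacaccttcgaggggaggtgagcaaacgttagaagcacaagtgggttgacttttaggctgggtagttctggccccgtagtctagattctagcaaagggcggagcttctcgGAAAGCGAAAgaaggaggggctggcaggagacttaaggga
This RefSeq start lies inside the GENCODE span given above, which begins further upstream. Of 27025 genes in the RefSeq table, 3.46% hold these letters on either strand in a window of the same 250 bases. Among 31 genes with a negative difference, 24 were found in the table, and 3 of them (Sema6b, Fcgr4 and Myd88) held them. The STAT element TTCCNGGAA (1.09% of genes) was in 0 of the 24, and the NF-kB element (GGGA, any base, TTTCC, 0.414% of genes) in 1, Ms4a4a. A match of letters is a description of the sequence only.

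Cytokine and NF-kB genes had a median response of 0.57 in control mice, where 12 of 36 rose and 3 fell, and of 0.10 in the CBD-treated exposed mice, where 0 passed in edgeR, 4 had an unadjusted p under 0.05, and DESeq2 and limma-voom called 2 and 12. The median difference between responses was -0.65, and 31 of the 36 were negative, with Bcl3 and Cxcl13 past the threshold. Bcl3, a nuclear member of the IkB family, was at 10.6, 13, 19.7 and 12 CPM in Ctrl-PBS and 145, 97.4, 78.8 and 98.8 CPM in Ctrl-LPS. The GW-CBD-PBS libraries were at 11.0, 11.3 and 9.29 CPM and those of GW-CBD-LPS at 16.3, 27.4, 14.6 and 21.8 CPM. In both arms the LPS libraries lay above the PBS libraries, and all Ctrl-LPS libraries lay above all GW-CBD-LPS libraries. The difference was -2.0 ± 0.37 (adjusted p = 0.00829), called in all 15 fits. Cxcl13, a chemokine that attracts B cells, was at 3.41 to 8.33 CPM in Ctrl-PBS, 41.7 to 364 CPM in Ctrl-LPS, 5.09 to 9.54 CPM in GW-CBD-PBS and 12.3 to 19.6 CPM in GW-CBD-LPS. Its difference of -4.21 ± 0.95 (adjusted p = 0.0238) lost its call without Ctrl-PBS replicate 1, Ctrl-LPS replicate 1, GW-CBD-PBS replicate 2 or 3, or GW-CBD-LPS replicate 3 (adjusted p up to 0.0705).

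The classical cytokines did not pass. Tnf was at 46.3 ± 18.3 and 145 ± 101 CPM in Ctrl-PBS and Ctrl-LPS, and at 47.5 ± 20.7 and 70.4 ± 29.7 CPM in GW-CBD-PBS and GW-CBD-LPS. Its difference between responses was -1.08 ± 0.57 (adjusted p = 0.383), and its highest values in the control groups were in the 2 libraries with raised neutrophil markers, 73.7 and 296 CPM. Il1b, the gene of interleukin 1 beta, had -0.74 ± 0.82 (adjusted p = 0.760), with its highest control values in the same libraries, 300 CPM in Ctrl-PBS replicate 3 and 487 CPM in Ctrl-LPS replicate 1. Without GW-CBD-PBS replicate 3 the value of Il1b was 0.02. Nfkbia, the inhibitor of NF-kB, had -1.46 ± 0.45 (adjusted p = 0.0953). Saa3, an acute phase protein gene, was listed at 0 in 3 Ctrl-PBS libraries and at 57.2 to 471 CPM in Ctrl-LPS, against 0.0289 to 0.645 CPM and 2.40 to 22.6 CPM in the other arm. Its difference did not pass (adjusted p = 0.0895).

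Of the 20 genes of the SOCS and STAT3 axis 2 had a difference past the threshold, both negative. Socs3, the feedback inhibitor of cytokine receptors, was at 185, 192, 273 and 246 CPM in Ctrl-PBS and 1669, 1760, 1237 and 1266 CPM in Ctrl-LPS. CBD-treated exposed mice without LPS were at 334, 443 and 236 CPM and those with LPS at 430, 920, 417 and 600 CPM. All Ctrl-LPS libraries lay above all GW-CBD-LPS libraries, and the groups of the CBD-treated exposed arm overlapped. The difference was -1.92 ± 0.40 (adjusted p = 0.0173), and it lost its call without GW-CBD-PBS replicate 3 (adjusted p = 0.0634). Il4ra, a receptor subunit for interleukins 4 and 13, had responses of 1.95 ± 0.21 and 0.28 ± 0.22 and a difference of -1.66 ± 0.30 (adjusted p = 0.00829), called in all 15 fits. Cebpb, a transcription factor gene of the acute inflammatory response chosen after its values were seen, had a difference of -1.98 ± 0.39 (adjusted p = 0.0115) and was also called in all 15 fits.

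With LPS 7 of 17 complement genes rose in control mice (10.8% over all genes), and 1 had a difference past the threshold (1.98% over all genes). This was C5ar1, the receptor of the complement fragment C5a (ENSMUSG00000049130, chromosome 7, 16246743 to 16259540). It was at 353, 349, 470 and 337 CPM in Ctrl-PBS and 2647, 1827, 1551 and 2252 CPM in Ctrl-LPS. In GW-CBD-PBS it was at 314, 381 and 340 CPM and in GW-CBD-LPS at 378, 607, 362 and 466 CPM. Every Ctrl-LPS library lay above every other library, and the groups of the CBD-treated exposed arm overlapped. The responses were 2.45 ± 0.23 and 0.39 ± 0.23, and the difference was -2.06 ± 0.31 (adjusted p = 0.00323). The call of C5ar1 held in all 15 fits that left out 1 library. The receptor gene C3ar1 had -0.81 ± 0.22 (adjusted p = 0.0576). DESeq2 called the difference in 2 genes of the complement list and limma-voom in 5. In exposed mice without CBD the response of C5ar1 was 1.98 ± 0.23.

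Of the 38 lysosome and phagocytosis genes 4 had a negative difference past the threshold, the scavenger receptor gene Msr1 and the Fc receptor genes Fcgr2b, Fcgr3 and Fcgr4. In control mice 19 genes of this list rose and 7 fell with LPS, and in the CBD-treated exposed mice 4 rose in edgeR, with 14 at an unadjusted p under 0.05, 7 called in DESeq2 and 16 in limma-voom. Msr1 was at 14.1, 14.9, 15.9 and 15.5 CPM in Ctrl-PBS and 415, 171, 134 and 176 CPM in Ctrl-LPS, the highest being the library with raised neutrophil markers. The GW-CBD-PBS libraries were at 14.6, 25.5 and 10.9 CPM and those of GW-CBD-LPS at 27.5, 41.4, 15.6 and 30.2 CPM. Its difference was -3.14 ± 0.53 (adjusted p = 0.00609), called in all 15 fits, and the estimate nearest 0 among these was -2.65. Fcgr4, an activating receptor for antibody, went from 33.1 ± 5.77 to 360 ± 86.3 CPM in control mice and from 22.9 ± 2.83 to 84.7 ± 38.5 CPM in the other arm, with both responses past the threshold (3.44 ± 0.29 and 1.89 ± 0.30). Its difference was -1.56 ± 0.39 (adjusted p = 0.041). Fcgr3, also activating, had -1.18 ± 0.27 (adjusted p = 0.0228), and the inhibitory receptor gene Fcgr2b -0.75 ± 0.18 (adjusted p = 0.0332). The 3 Fc receptor calls were lost without GW-CBD-PBS replicate 3 or 4 or GW-CBD-LPS replicate 1 (adjusted p up to 0.11). Fcgr4 and Fcgr2b were also lost without replicate 1 or 4 of Ctrl-PBS or replicate 1 of Ctrl-LPS, Fcgr4 and Fcgr3 without Ctrl-LPS replicate 4, Fcgr4 without replicate 2 of Ctrl-PBS or of GW-CBD-PBS, and Fcgr2b without Ctrl-PBS replicate 3 or GW-CBD-LPS replicate 3. With the 3 libraries of raised neutrophil signal left out 0 of the 3 passed in edgeR, with -1.55 for Fcgr4 (adjusted p = 0.0682), -1.09 for Fcgr3 (adjusted p = 0.0589) and -0.64 for Fcgr2b (adjusted p = 0.0792). Fcgr4 was chosen after its values were seen, and reads of the closely related Fc receptor genes may be shared between them.

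The Ms4a genes, a family of membrane proteins that cluster on chromosome 19, were grouped after their values were seen, so they are given as counts. Of 11 tested members 4 had a negative difference past the threshold, with a median over the family of -1.78, and 3 or 4 were called in each fit that left out 1 library. Ms4a6c (ENSMUSG00000079419, chromosome 19, 11469366 to 11482192) was at 22.3, 21.1, 26.4 and 19.4 CPM in Ctrl-PBS and 407, 206, 121 and 384 CPM in Ctrl-LPS. CBD-treated exposed mice without LPS were at 16.9, 22.5 and 17.0 CPM and those with LPS at 30.2, 31.9, 19.0 and 33.2 CPM. The lowest Ctrl-LPS library was above the highest GW-CBD-LPS library, and the difference was -3.04 ± 0.41 (adjusted p = 0.00119). Ms4a6d had -1.89 ± 0.35, Ms4a6b -1.78 ± 0.33 and Ms4a4a -2.54 ± 0.57, the last lost without Ctrl-PBS replicate 1, GW-CBD-PBS replicate 3 or GW-CBD-LPS replicate 1 (adjusted p up to 0.0908). Their responses in exposed mice without CBD were 1.71 ± 0.30 for Ms4a6c, 1.04 ± 0.26 for Ms4a6d, 0.74 ± 0.24 for Ms4a6b and 1.70 ± 0.41 for Ms4a4a.

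Cd244a, a receptor of the SLAM family known from natural killer cells, rose in both arms by different amounts. It was at 3.05, 4.08, 5.37 and 2.38 CPM in Ctrl-PBS and 244, 206, 182 and 207 CPM in Ctrl-LPS. In GW-CBD-PBS it was at 5.68, 6.17 and 5.03 CPM and in GW-CBD-LPS at 28.5, 66.7, 10.8 and 37.0 CPM. The libraries with and without LPS did not overlap in either arm, and neither did the LPS libraries between arms. The responses were 5.82 ± 0.44 and 2.67 ± 0.42, and their difference was -3.15 ± 0.54 (adjusted p = 0.00609), called in all 15 fits. No other gene of the 24 tested in the immune checkpoint and SLAM list passed in edgeR, and the inhibitory receptor gene Pdcd1 had 1.44 ± 0.39 (adjusted p = 0.0595). DESeq2 called the difference in 2 genes of this list and limma-voom in 6.

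**Figure D2:**
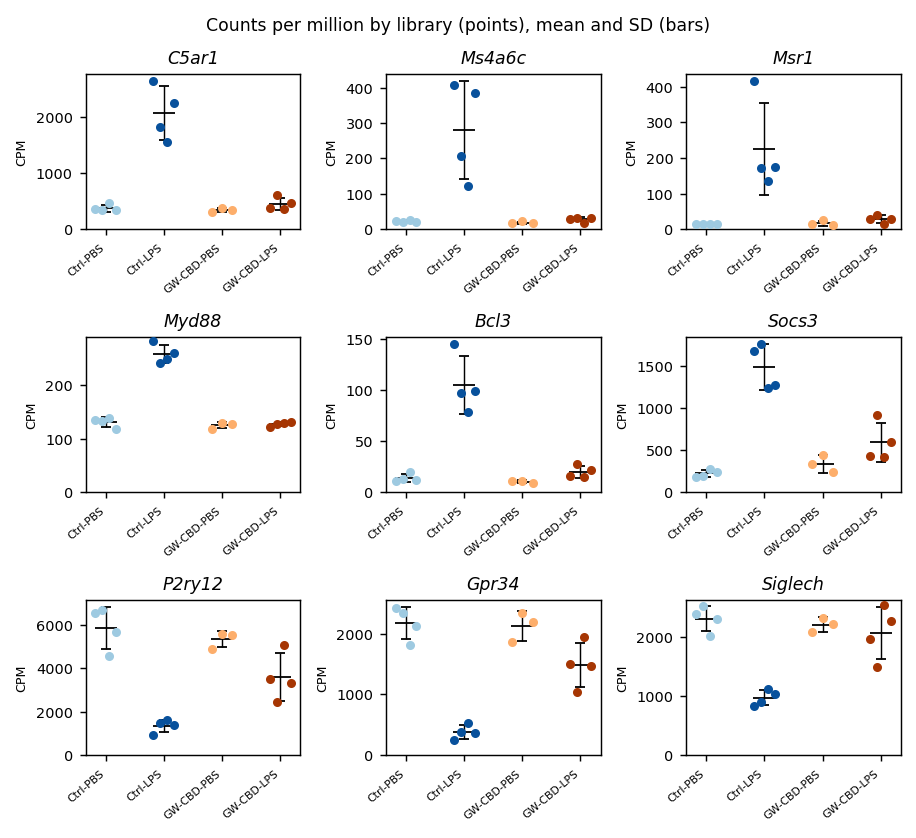
CPM (y axis) of 9 genes in each library of the 4 groups (points), with the group mean and SD (bars), on axes that start at 0. For C5ar1, Ms4a6c, Msr1, Myd88, Bcl3 and Socs3 the Ctrl-LPS libraries lie above all others, and for P2ry12, Gpr34 and Siglech they lie below all others.

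Several of the genes with the most negative differences were near silent without LPS. Adamtsl4, a secreted protein of the extracellular matrix, was at 1.19, 0.649, 1.53 and 1.99 CPM in Ctrl-PBS and 125, 135, 39.3 and 118 CPM in Ctrl-LPS. The GW-CBD-PBS libraries were at 1.98, 1.95 and 1.76 CPM and those of GW-CBD-LPS at 2.87, 6.50, 1.75 and 3.53 CPM. Each Ctrl-LPS library exceeded each library of the other groups, and GW-CBD-LPS overlapped GW-CBD-PBS through replicate 3. The difference was -5.33 ± 0.73 (adjusted p = 0.00119), called in all 15 fits, and the response of exposed mice without CBD was 5.6 ± 0.56. Plet1, a surface glycoprotein gene of progenitor and epithelial cells, was at 9.78 to 145 CPM in Ctrl-LPS against 0 to 0.39 CPM in the other 3 groups, with a difference of -8.97 ± 1.78 (adjusted p = 0.0121). Its call was lost without GW-CBD-PBS replicate 2 or 3 (adjusted p up to 0.0757). Arg1, the arginase of alternatively activated macrophages, was at 44.0, 2.39, 0.845 and 9.43 CPM in Ctrl-LPS and listed at 0 in 3 of 4 Ctrl-PBS libraries, with 0.643 CPM in the fourth. It was at 0.167 to 0.434 CPM in GW-CBD-PBS and 0.026 to 0.172 CPM in GW-CBD-LPS. The fitted difference of Arg1 passed (adjusted p = 0.0145), but its size depends on near-zero counts and ran from -14.05 to -6.77 in the fits that left out 1 library. Sema6b, a semaphorin gene, went from 4.59 ± 1.14 to 39.1 ± 14.5 CPM in control mice against 5.99 ± 1.23 and 6.91 ± 2.00 CPM in the other arm, with a difference of -2.89 ± 0.58 (adjusted p = 0.0132), called in all 15 fits.

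Interferon response genes had positive median responses in both arms. Over the 40 genes tested the median response was 1.08 in control mice, where 29 rose, and 0.84 in the CBD-treated exposed mice. There 2 rose in edgeR, 28 had an unadjusted p under 0.05, and DESeq2 and limma-voom called 12 and 33. The difference between responses was negative in 34 with a median of -0.48. DESeq2 called it in 3 genes and limma-voom in 5, and in edgeR it passed in 1 gene (1.98% over all genes). This was Ifi204, an interferon-inducible sensor of DNA, at 28.6, 21.7, 21.6 and 26.5 CPM in Ctrl-PBS and 194, 113, 109 and 159 CPM in Ctrl-LPS. CBD-treated exposed mice without LPS were at 22.1, 22.6 and 21.2 CPM and those with LPS at 50.5, 67.6, 30.0 and 45.8 CPM. All LPS libraries lay above the PBS libraries of their arm, and all Ctrl-LPS above all GW-CBD-LPS libraries. Its difference was -1.41 ± 0.32 (adjusted p = 0.0235), lost without any 1 of the 3 GW-CBD-PBS libraries (adjusted p up to 0.0641). Ifit3, induced by type I interferon, had 0.10 ± 0.44 (adjusted p = 0.961) and Slfn2 -1.12 ± 0.34 (adjusted p = 0.0863). The interferon-inducible GTPases and the class I and class II antigen presentation lists had 0 of 15, 0 of 20 and 0 of 14 genes past the threshold in edgeR. In the same order 3, 3 and 5 had an unadjusted p under 0.05, DESeq2 called 1, 0 and 2, and limma-voom 2, 1 and 5. Over all 16554 genes DESeq2 called 888 and limma-voom 2194. H2-Aa, a class II chain, had 1.39 ± 0.58 (adjusted p = 0.236) with responses of -2.80 ± 0.42 and -1.41 ± 0.42, of which the first passed.

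Targets of the glucocorticoid receptor, the nuclear receptor for corticosterone, rose in control mice in 10 of 14 cases (median 1.70). In the CBD-treated exposed mice the median was 0.03, 0 passed in edgeR or DESeq2, and 4 had an unadjusted p under 0.05, as many as limma-voom called. The median difference between responses was -1.43, and Fkbp5 and Ddit4 passed. Fkbp5, a co-chaperone of the receptor, was at 64.7, 58.9, 64.4 and 70.7 CPM in Ctrl-PBS and 401, 497, 167 and 485 CPM in Ctrl-LPS. In GW-CBD-PBS it was at 87.8, 74.5 and 78.0 CPM and in GW-CBD-LPS at 84.5, 112, 89.1 and 63.1 CPM. Only the Ctrl-LPS libraries were high, and the groups of the other arm overlapped. The difference was -2.46 ± 0.57 (adjusted p = 0.0284), with a call lost without Ctrl-PBS replicate 1, Ctrl-LPS replicate 4, any 1 GW-CBD-PBS library or GW-CBD-LPS replicate 1, 3 or 4 (adjusted p up to 0.08). Ddit4, an inhibitor of mTOR signalling, had -3.96 ± 0.93 (adjusted p = 0.0302) and lost its call without replicate 1, 2 or 4 of Ctrl-PBS, replicate 4 of Ctrl-LPS, any 1 GW-CBD-PBS library or GW-CBD-LPS replicate 1 or 3 (adjusted p up to 0.0933). Across these fits the list had 0 to 4 calls.

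Iron and lipid handling genes passed in small numbers. Of 18 genes of the Nrf2 and iron list 2 had a negative and 1 a positive difference. Hmox1, the heme-degrading oxygenase, had -1.06 ± 0.27 (adjusted p = 0.0433), and Slc39a14, an importer of zinc and iron, -1.86 ± 0.40 (adjusted p = 0.0191). Slc40a1, ferroportin, the iron exporter, went from 281 ± 32.1 to 97.8 ± 28.5 CPM in control mice and from 331 ± 27.9 to 248 ± 40.3 CPM in the other arm, with a difference of 1.10 ± 0.29 (adjusted p = 0.0482). Of 27 cholesterol and lipid genes 2 passed. Plin2, the coat protein of lipid droplets, went from 72.7 ± 17.1 to 287 ± 130 CPM in control mice and from 68.6 ± 11.4 to 89.9 ± 17.8 CPM in the other arm, with -1.59 ± 0.37 (adjusted p = 0.0284), and Soat1, which esterifies cholesterol, had -0.88 ± 0.19 (adjusted p = 0.0191). Slc39a14 and Soat1 lost their calls without any 1 GW-CBD-PBS library (adjusted p up to 0.0917). Hmox1, Slc40a1 and Plin2 did so as well, and also without replicate 1 or 4 of Ctrl-PBS, replicate 1 of Ctrl-LPS, or replicate 1 or 3 of GW-CBD-LPS. Hmox1 and Plin2 further lost theirs without replicate 2 of Ctrl-PBS or replicate 4 of Ctrl-LPS, Hmox1 without GW-CBD-LPS replicate 2, and Slc40a1 without replicate 3 of Ctrl-PBS or of Ctrl-LPS, with adjusted p up to 0.141. Apoe, the lipid carrier raised in disease-associated microglia, had -1.44 ± 0.38 (adjusted p = 0.0526), and 0 of the 26 genes of that list passed in edgeR, with 7 at an unadjusted p under 0.05, 2 called in DESeq2 and 4 in limma-voom.

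Ribosome biogenesis genes, grouped by their Nop, Utp, Rrp and Noc names after values were seen, had a negative difference past the threshold in 9 of 29 cases, with a median of -0.65. In control mice 19 of them rose with LPS. In the CBD-treated exposed mice 0 passed in edgeR or DESeq2, 1 had an unadjusted p under 0.05 and limma-voom called 2. Nop58, a core protein of box C/D ribonucleoproteins, was at 20.9, 18.6, 19.3 and 19.8 CPM in Ctrl-PBS and 59.6, 27.7, 45.6 and 39.3 CPM in Ctrl-LPS, against 22.1, 22.2 and 22.5 CPM and 20.2, 23, 22.8 and 20.6 CPM in the other arm. Its difference was -1.17 ± 0.23 (adjusted p = 0.0109), called in all 15 fits. Nop56, its partner, had -0.85 ± 0.19 (adjusted p = 0.0223), and Myc, a transcription factor that drives ribosome production, -1.44 ± 0.31 (adjusted p = 0.02), both lost without any 1 GW-CBD-PBS library or GW-CBD-LPS replicate 1, and Nop56 also without GW-CBD-LPS replicate 3 (adjusted p up to 0.0668). The count of the group ran from 1 to 12 in the fits that left out 1 library, the fewest without GW-CBD-PBS replicate 4, and was 6 without the libraries of raised neutrophil signal. All of these genes were chosen after their values were seen. The 79 ribosomal protein genes had 0 calls in edgeR, with 3 at an unadjusted p under 0.05, 0 called in DESeq2 and 7 in limma-voom, and medians of 0.80 and 0.68 for the responses.

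**Figure D3:**
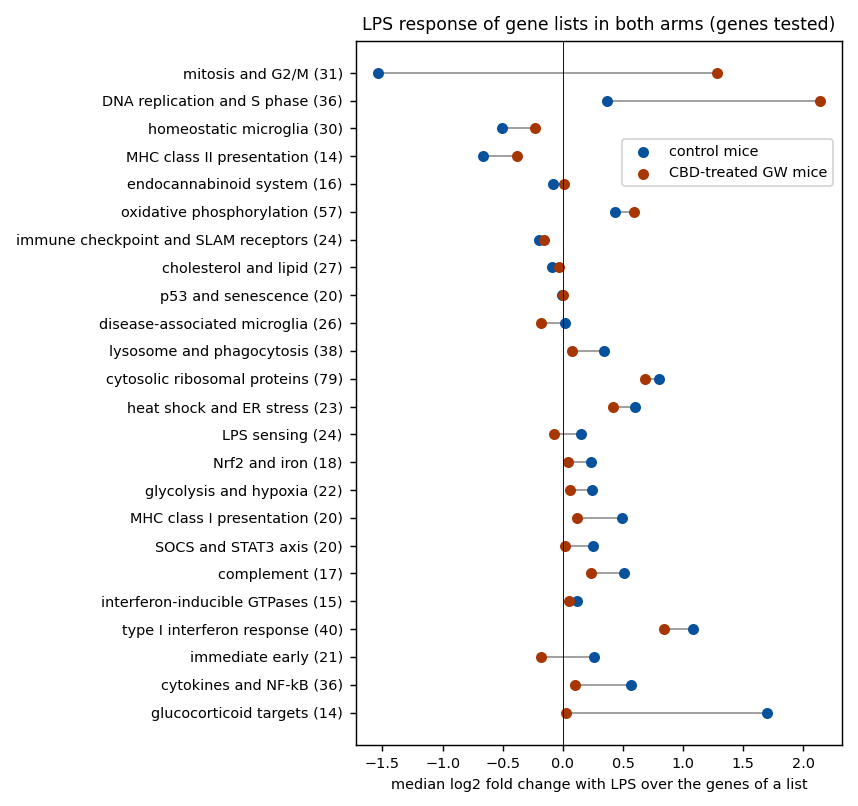
Median log2 fold change with LPS over the tested genes of 24 lists (x axis, number of genes in brackets), in control mice and in CBD-treated GW mice, ordered by the median difference between responses. Mitosis genes lie on opposite sides of 0, at -1.54 and 1.28, and glucocorticoid targets at 1.70 and 0.03.

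Of the 30 genes of the homeostatic list 4 had a positive difference past the threshold and 0 a negative one, and 24 were positive in all (median 0.41). The other 6 were negative, 2 of them with an unadjusted p under 0.05. DESeq2 called 1 gene of negative sign, and so did the edgeR fit with the replicate number as a block. In control mice 16 fell and 2 rose with LPS (median -0.51), and in the other arm 0 passed in edgeR or DESeq2 (median -0.23), 7 had an unadjusted p under 0.05 and limma-voom called 13. P2ry12, the purinergic receptor that guides microglial processes (ENSMUSG00000036353, chromosome 3, 59216272 to 59262871), was at 6565, 6672, 4582 and 5688 CPM in Ctrl-PBS and 943, 1469, 1612 and 1388 CPM in Ctrl-LPS. The GW-CBD-PBS libraries were at 4907, 5594 and 5518 CPM and those of GW-CBD-LPS at 3517, 2454, 5077 and 3337 CPM. Every GW-CBD-LPS library lay above every Ctrl-LPS library, and replicate 3 reached the range of its PBS group. The difference was 1.55 ± 0.28 (adjusted p = 0.00829), and 1.34 at the least when 1 library was left out.

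Gpr34, a receptor for lysophosphatidylserine on chromosome X, was at 2419, 2331, 1820 and 2127 CPM in Ctrl-PBS and 247, 377, 536 and 365 CPM in Ctrl-LPS. CBD-treated exposed mice without LPS were at 1854, 2340 and 2186 CPM and those with LPS at 1497, 1046, 1938 and 1460 CPM, again all above Ctrl-LPS. Its responses were -2.51 ± 0.22 and -0.52 ± 0.22, with a difference of 1.99 ± 0.31 (adjusted p = 0.00361). Siglech, a sialic acid binding lectin of microglia, had responses of -1.25 ± 0.15 and -0.10 ± 0.16 and a difference of 1.15 ± 0.21 (adjusted p = 0.00829). P2ry12, Gpr34 and Siglech were called in all 15 fits. The call of Serpine2, a protease inhibitor gene (0.92 ± 0.23, adjusted p = 0.0435, chosen after its values were seen), was lost without any 1 GW-CBD-PBS library, any GW-CBD-LPS library but replicate 2, replicate 1, 2 or 4 of Ctrl-PBS, or replicate 1 or 2 of Ctrl-LPS (adjusted p up to 0.131). The responses in exposed mice without CBD were -1.66 ± 0.21 for P2ry12, -1.95 ± 0.24 for Gpr34 and -1.08 ± 0.16 for Siglech.

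The microglial genes Tmem119, Cx3cr1 and Trem2 had smaller positive values that did not pass. Tmem119, a membrane protein that marks microglia, had 0.25 ± 0.16 (adjusted p = 0.51), Cx3cr1, the fractalkine receptor, 0.52 ± 0.21 (adjusted p = 0.217), and Trem2, a receptor for lipids, 0.57 ± 0.27 (adjusted p = 0.314). Of 16 endocannabinoid genes, which include receptors and enzymes for the body's own cannabinoids, 0 passed in edgeR, 1 in each direction in DESeq2 and 5 in limma-voom, and 5 had an unadjusted p under 0.05. Mgll, the lipase that degrades 2-arachidonoylglycerol, was at 94.4 ± 11.9 and 36.6 ± 10.4 CPM in Ctrl-PBS and Ctrl-LPS and at 80.2 ± 9.06 and 70.9 ± 18.1 CPM in the other arm, with 1.19 ± 0.32 (adjusted p = 0.0569).

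Some genes with the most positive differences were close to 0 in control mice after LPS. Adcy8, an adenylyl cyclase, was at 7.52, 4.28, 5.48 and 8.25 CPM in Ctrl-PBS and was listed at 0 in 3 of 4 Ctrl-LPS libraries, with 0.264 CPM in replicate 3. In GW-CBD-PBS it was at 7.40, 4.92 and 7.41 CPM and in GW-CBD-LPS at 3.84, 3.22, 4.30 and 2.04 CPM. Duoxa1, the maturation factor of dual oxidase, was at 16.9, 15.3, 9.87 and 10.4 CPM in Ctrl-PBS and 0.0351, 0.0555, 0.502 and 0 CPM in Ctrl-LPS, against 11.6, 10.7 and 11.4 CPM and 6.85, 1.69, 12.1 and 8.69 CPM in the other arm. For both genes every GW-CBD-LPS library lay above every Ctrl-LPS library. Both passed (adjusted p = 0.00588) and did so in all 15 fits, but their fitted differences of 5.43 ± 0.91 and 5.72 ± 0.95 rest on near-zero counts. Ptn, the growth factor pleiotrophin, had 3.35 ± 0.66 (adjusted p = 0.0121), and its levels without LPS were 7.29 ± 2.92 CPM in control mice and 2.21 ± 0.635 CPM in the other arm, a difference that did not pass (adjusted p = 0.822). Tnfrsf17, the receptor BCMA of plasma cells, fell from 16 to 26.5 CPM in Ctrl-PBS to 0.0351 to 1.90 CPM in Ctrl-LPS and had 3.50 ± 0.79 (adjusted p = 0.0239), with Ighm lower in the same Ctrl-LPS libraries (248 to 537 CPM against 856 to 1035 CPM in the other 11). The part of B lineage cells in this was not tested. Its call was lost without any 1 GW-CBD-PBS library or GW-CBD-LPS replicate 3 (adjusted p up to 0.0893).

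Cell cycle genes had positive differences between responses. All 36 tested genes of DNA replication and S phase had a positive difference between responses, with a median of 1.57, and 5 passed in edgeR, 14 in DESeq2 and 24 in limma-voom. With LPS 4 rose in control mice (median 0.37) and 14 in the CBD-treated exposed mice (median 2.14), where DESeq2 called 33 and limma-voom all 36. The summed level of the list was 464 to 814 CPM in Ctrl-PBS, 518 to 864 CPM in Ctrl-LPS and 514 to 529 CPM in GW-CBD-PBS. For exposed mice without CBD it was 440 to 609 CPM (median 528) in GW-PBS and 515 to 1232 CPM (median 920) in GW-LPS. In GW-CBD-LPS it was 2094, 1901 and 1750 CPM in replicates 1, 2 and 4 and 738 CPM in replicate 3. Leaving out 1 library gave 0 calls (without GW-CBD-PBS replicate 3) to 8 (without Ctrl-LPS replicate 1), with 3 calls and a median of 1.22 without Ctrl-PBS replicate 3 and 7 calls and a median of 1.82 without GW-CBD-LPS replicate 3. With the 3 libraries of raised neutrophil signal left out there were 4 calls and a median of 1.32.

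Tk1, the thymidine kinase of S phase, was at 4.66, 4.78, 16.8 and 6.88 CPM in Ctrl-PBS and 7.37, 2.72, 1.88 and 3.69 CPM in Ctrl-LPS. The GW-CBD-PBS libraries were at 4.85, 3.67 and 4.08 CPM and those of GW-CBD-LPS at 42.9, 15.4, 13.5 and 42.5 CPM. The GW-CBD-LPS libraries lay above all Ctrl-LPS and GW-CBD-PBS libraries, and the highest of Ctrl-PBS was the library with raised neutrophil markers. The responses were -1.09 ± 0.50 and 2.76 ± 0.59, of which the second passed, and the difference was 3.85 ± 0.76 (adjusted p = 0.0122), lost without GW-CBD-PBS replicate 3 (adjusted p = 0.0512). Rfc3, a subunit of the clamp loader, was at 15.2, 19.7, 17.1 and 16.7 CPM in Ctrl-PBS, 19.1, 10.5, 16.1 and 11.6 CPM in Ctrl-LPS, 14.9, 12.5 and 13.9 CPM in GW-CBD-PBS and 31.6, 25.9, 24.7 and 35.8 CPM in GW-CBD-LPS. Its lowest GW-CBD-LPS library was above all 11 others, with a difference of 1.37 ± 0.29 (adjusted p = 0.0188) that lost its call without GW-CBD-PBS replicate 3 or 4 (adjusted p up to 0.0654).

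Ccne2, a cyclin of the G1 to S transition, had 3.33 ± 0.82 (adjusted p = 0.0384). Its call was lost without replicate 3 or 4 of Ctrl-PBS, replicate 2 or 4 of Ctrl-LPS, any 1 GW-CBD-PBS library, or replicate 1 or 4 of GW-CBD-LPS (adjusted p up to 0.109). Mcm7, a subunit of the replicative helicase, was at 23.2, 21.5, 43.4 and 26.5 CPM in Ctrl-PBS, 45.4, 29.9, 53.2 and 36.3 CPM in Ctrl-LPS and 25.9, 25.7 and 24.0 CPM in GW-CBD-PBS. In GW-CBD-LPS it was at 126, 123 and 122 CPM in replicates 1, 2 and 4 and at 38.7 CPM in replicate 3. Its difference of 1.5 ± 0.46 did not pass (adjusted p = 0.0953).

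All 31 tested genes of mitosis and G2/M had a positive difference as well, with a median of 2.84, and 4 passed in edgeR, 20 in DESeq2 and 21 in limma-voom. Here 12 fell with LPS in control mice (median -1.54) and 0 passed in the CBD-treated exposed mice (median 1.28), where 12 had an unadjusted p under 0.05, DESeq2 called 4 and limma-voom 27. The summed level was 56.2, 81.3 and 101 CPM in Ctrl-PBS replicates 2, 4 and 1 and 395 CPM in replicate 3, the library with 27814 CPM of neutrophil markers. It was 36.9 to 79.5 CPM in Ctrl-LPS, 73.4 to 83.7 CPM in GW-CBD-PBS and 126 to 319 CPM in GW-CBD-LPS. For exposed mice without CBD it was 74.2 to 121 CPM in GW-PBS and 51.3 to 63.7 CPM in GW-LPS. Without Ctrl-PBS replicate 3 0 of these genes passed and the median difference was 1.73. With the 3 libraries of raised neutrophil signal left out 4 passed, Bub1 and Mad2l1 not among them, with a median of 2.16. Leaving out 1 library gave up to 13 calls, that being without Ctrl-PBS replicate 2.

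Among the 4, Top2a, the topoisomerase that untangles chromosomes, was at 5.00, 1.71, 17.0 and 2.49 CPM in Ctrl-PBS and 3.12, 0.999, 1.29 and 1.12 CPM in Ctrl-LPS. CBD-treated exposed mice without LPS were at 3.20, 2.90 and 4.43 CPM and those with LPS at 22.3, 8.16, 6.95 and 11.2 CPM, above all Ctrl-LPS and GW-CBD-PBS libraries. Its difference was 3.80 ± 0.95 (adjusted p = 0.041). Cdk1, the kinase that starts mitosis (chosen after its values were seen), had 2.71 ± 0.68, Bub1, a checkpoint kinase, 4.52 ± 1.14, and Mad2l1, a spindle checkpoint protein, 1.70 ± 0.43. Pclaf, a binding partner of the sliding clamp that belongs to neither list, had 4.76 ± 1.24 (adjusted p = 0.0498). All 5 lost their calls without Ctrl-PBS replicate 3, Ctrl-LPS replicate 2, any 1 GW-CBD-PBS library or GW-CBD-LPS replicate 1. Top2a and Cdk1 lost theirs also without Ctrl-PBS replicate 1, and Top2a, Cdk1 and Pclaf without Ctrl-LPS replicate 4. Top2a, Cdk1, Mad2l1 and Pclaf lost theirs without GW-CBD-LPS replicate 4, and Cdk1, Bub1 and Pclaf without GW-CBD-LPS replicate 3. Bub1 and Mad2l1 lost theirs without Ctrl-LPS replicate 1, Bub1 without Ctrl-PBS replicate 4, and Pclaf without Ctrl-LPS replicate 3 (adjusted p up to 0.135 over the 5).

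The starts of Rfc3 and Cdk1 are printed because both genes had a positive difference and hold a match to an E2F element, the site of factors that drive S phase genes. The letters searched were TTTCCCGC, TTTGGCGC, TTTCGCGC and TTTGCCGC on both strands, found in 2.16% of all genes, and the match is in capitals. Of 10 cell cycle genes 7 were found in the table and 2 held a match. The sequences are from RefSeq (GRCm38.p6), Rfc3 at chr5:151651209-151651458 and Cdk1 at chr10:69352913-69353162, both on the minus strand, with the first base of the match 10 and 131 bases before the start.
Rfc3 promoter: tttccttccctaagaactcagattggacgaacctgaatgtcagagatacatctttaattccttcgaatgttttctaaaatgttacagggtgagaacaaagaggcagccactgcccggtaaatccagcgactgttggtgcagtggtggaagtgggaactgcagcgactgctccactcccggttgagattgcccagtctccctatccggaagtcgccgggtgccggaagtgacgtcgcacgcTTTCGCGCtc
Cdk1 promoter: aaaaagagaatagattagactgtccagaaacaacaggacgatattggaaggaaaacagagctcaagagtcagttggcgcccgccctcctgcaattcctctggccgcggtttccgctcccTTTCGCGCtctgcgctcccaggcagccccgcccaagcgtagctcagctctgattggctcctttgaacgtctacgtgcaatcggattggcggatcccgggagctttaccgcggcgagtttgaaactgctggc

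**Figure D4:**
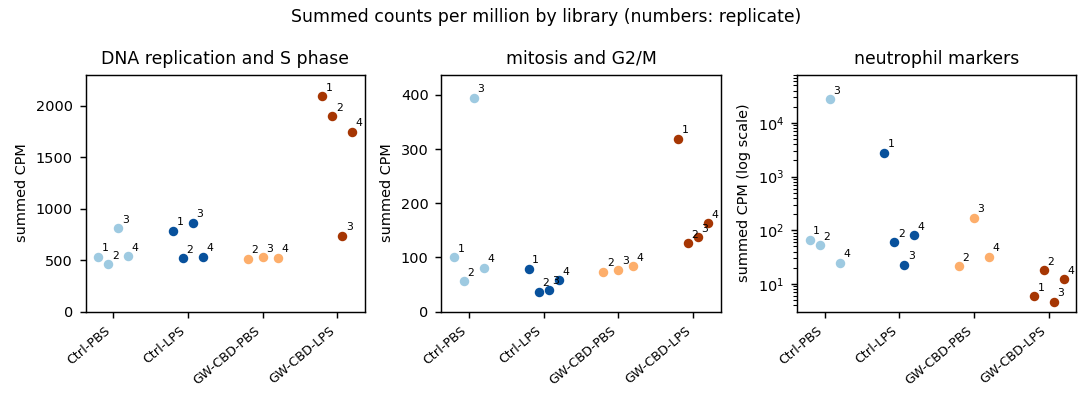
Summed CPM (y axis, log scale for neutrophil markers) of the S phase list, the mitosis list and the neutrophil markers in each library, with replicate numbers beside the points. The S phase sum is high in GW-CBD-LPS replicates 1, 2 and 4 (1750 to 2094 CPM) and not in replicate 3 (738 CPM), and the mitosis sum is highest in Ctrl-PBS replicate 3 (395 CPM), which also has the most neutrophil signal.

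Genes of the circadian clock were grouped after their values were seen. In the clock the factors Clock and Bmal1 drive genes with an E-box, among them Nr1d1, Nr1d2, Dbp, Tef and Hlf, and the first 2 in turn repress Bmal1. Of 17 tested clock genes these 5 had a positive difference past the threshold and 0 a negative one in edgeR, while 3 had a negative value at an unadjusted p under 0.05 and DESeq2 called 2 of negative sign. In all 10 of the 17 were positive and 7 negative (median 0.32). Leaving out 1 library gave 1 to 5 positive calls, with 1 call without Ctrl-PBS replicate 1. Of the 5 genes only Nr1d1 kept its call in that fit and without any 1 GW-CBD-PBS library. Negative calls ran from 0 to 2, with 2 without Ctrl-PBS replicate 3. With the 3 libraries of raised neutrophil signal left out there were 3 positive calls and 1 negative. Nr1d1, also named Rev-erb alpha (ENSMUSG00000020889, chromosome 11, 98767932 to 98775333), was at 8.62, 9.69, 9.40 and 7.75 CPM in Ctrl-PBS and 2.63, 2.00, 1.82 and 1.54 CPM in Ctrl-LPS. In GW-CBD-PBS it was at 10.7, 16.4 and 8.16 CPM and in GW-CBD-LPS at 36.5, 9.67, 51.3 and 21.0 CPM. All Ctrl-LPS libraries were below all others, and the GW-CBD-LPS libraries spread widely and overlapped their PBS group. The responses were -2.15 ± 0.44, past the threshold, and 1.33 ± 0.46, not past it. Their difference was 3.48 ± 0.64 (adjusted p = 0.00829), called in all 15 fits.

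Nr1d2 had 2.29 ± 0.52 (adjusted p = 0.0238), Dbp 3.17 ± 0.73 (adjusted p = 0.0263), Hlf 3.1 ± 0.70 (adjusted p = 0.0233) and Tef 1.54 ± 0.39 (adjusted p = 0.0458). All 4 lost their calls without Ctrl-PBS replicate 1 or any 1 GW-CBD-PBS library (adjusted p up to 0.121). Nr1d2, Dbp and Tef also did so without Ctrl-LPS replicate 4 or GW-CBD-LPS replicate 3, Nr1d2 and Tef without GW-CBD-LPS replicate 1, and Tef without Ctrl-PBS replicate 3 or 4 or any 1 Ctrl-LPS library. Dbp was at 17.9, 3.35, 47.2 and 12.7 CPM in GW-CBD-LPS, with replicate 3 the highest, against 8.67 to 11.3 CPM in Ctrl-PBS, 1.53 to 2.86 CPM in Ctrl-LPS and 8.16 to 12.2 CPM in GW-CBD-PBS. Replicate 3 was also the highest of GW-CBD-LPS in Nr1d1, Nr1d2, Tef and Hlf. Per1, a clock gene that glucocorticoids also induce, had the opposite sign, with 29.4 ± 6.67 CPM in Ctrl-LPS against 7.71 ± 2.34 CPM in GW-CBD-LPS, and did not pass (-1.85 ± 0.49, adjusted p = 0.0526). The labels used here give no hour of day for the injections or the collection, so the part of sampling time was not tested.

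One of 2 RefSeq starts of Tef that hold the E-box CACGTG is printed, the only match among the 5 clock output genes, all of them in the table. These letters are in a window of 6.86% of all genes. It lies at chr15:81811164-81811413 (GRCm38.p6, plus strand), with the first base of the match 138 bases before the start.
Tef promoter: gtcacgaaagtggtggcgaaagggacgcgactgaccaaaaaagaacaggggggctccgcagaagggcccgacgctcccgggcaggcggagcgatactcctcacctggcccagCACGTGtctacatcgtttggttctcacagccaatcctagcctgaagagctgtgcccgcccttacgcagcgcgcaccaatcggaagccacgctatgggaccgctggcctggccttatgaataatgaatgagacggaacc

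**Figure D5:**
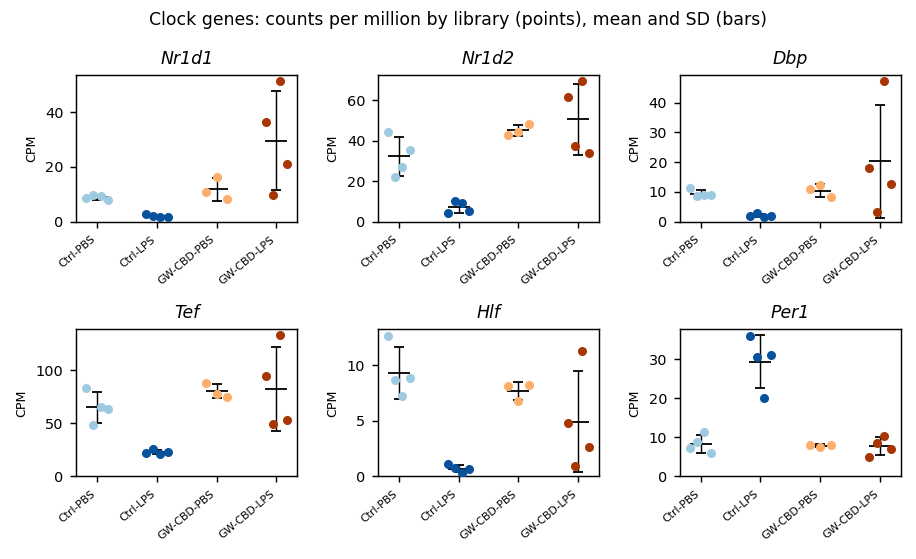
CPM (y axis) of 6 clock genes in each library of the 4 groups (points), with the group mean and SD (bars), on axes that start at 0. Nr1d1, Nr1d2, Dbp, Tef and Hlf are low in Ctrl-LPS and widely spread in GW-CBD-LPS, and Per1 is high in Ctrl-LPS only.

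Of the remaining lists, the p53 and senescence list had 1 call of 20, Aen, an exonuclease induced by p53, which went from 18.2 ± 2.04 to 36.2 ± 8.65 CPM in control mice and stood at 20.4 ± 1.40 and 18.3 ± 1.84 CPM in the other arm. Its difference was -1.14 ± 0.21 (adjusted p = 0.00829), called in all 15 fits. The glycolysis and hypoxia list had 1 of 22, Ddit4, and 0 in the edgeR fit without the libraries of raised neutrophil signal. Immediate early genes (0 of 21), heat shock and ER stress genes (0 of 23) and oxidative phosphorylation genes (0 of 57) had no calls in edgeR, with 4, 5 and 0 genes at an unadjusted p under 0.05. In the same order DESeq2 called 1, 0 and 0 and limma-voom 5, 3 and 0.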

How the data were processed

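Microglial poly(A) RNA was sequenced as paired 150 bp reads from stranded libraries, per the labels. The deposited values are whole-number counts per gene in 1 table of 54532 genes and 22 libraries, aligned to GRCm38/mm10 per the submitters' processing notes. Which aligner, counter, strand setting and annotation the authors used was not given in the sources used here. Reads of overlapping, antisense or closely related genes may therefore be shared. Gene symbols that had turned into dates (27) were restored from gene identifiers.

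Genes were kept with filterByExpr (16554, holding at least 99.9% of each library's counts) and fitted with edgeR 4.0.16 (R 4.3.3, TMM factors, quasi-likelihood test, 1 mean for each of 6 groups over all 22 libraries, two-sided, Benjamini-Hochberg over all genes tested). The common biological coefficient of variation was 0.35. An adjusted p under 0.05 is called past the threshold. The edgeR SE is the log2 value divided by the root of its F statistic. Single-gene CPM uses TMM-scaled totals, while sums over lists use plain library totals. The procedure was tested on simulated counts with the same mean in all groups, apart from effects added to GW-CBD-LPS. These held no library set apart from its group, so they cannot tell which tool's count is nearer the truth here. Replicate libraries differed by more than sampling noise. Alternatives were RLE size factors, no filter, DESeq2 1.42.0, limma 3.58.1 (voom with quality weights), the 15 libraries alone, a replicate block, and leaving out libraries.

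The comparison, gene lists and tests were chosen with earlier results of these data known. Named genes were, among called genes with at least 5 CPM in the highest group and no predicted gene or pseudogene, the 12 most negative and the 12 most positive, the 3 members of each pathway list with the smallest p, and a set of 13 index genes. Others are marked as chosen after their values were seen, which holds also for the clock, Ms4a, ribosome biogenesis and Fc receptor groups. Plet1os, P2ry2, Inf2, Vtn and Slc36a2, and list members that did not pass, also fall under the rule and are not all described singly. Some S phase genes are not reported here by name.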

Additional observations from a re-analysis of the deposited data

Results flagged for a closer look

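The response to LPS differed between the CBD-treated exposed and the control arm by a test of the difference itself in 327 genes. Among genes with a negative difference, the log2 value was -5.33 for Adamtsl4, -8.97 for Plet1, -8.51 for Arg1, -2.89 for Sema6b, -4.21 for Cxcl13, -3.96 for Ddit4, -3.15 for Cd244a and -3.14 for Msr1. It was -3.04 for Ms4a6c, -2.54 for Ms4a4a, -1.78 for Ms4a6b, -1.89 for Ms4a6d, -2.06 for C5ar1, -0.75 for Fcgr2b, -1.18 for Fcgr3 and -1.56 for Fcgr4. Signalling and interferon genes had -0.94 (Myd88), -2.0 (Bcl3), -1.66 (Il4ra), -1.92 (Socs3), -1.98 (Cebpb), -1.41 (Ifi204) and -2.46 (Fkbp5). Metabolic and growth genes had -1.59 (Plin2), -0.88 (Soat1), -1.06 (Hmox1), -1.86 (Slc39a14), -0.85 (Nop56), -1.17 (Nop58), -1.44 (Myc) and -1.14 (Aen).

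Positive differences were 1.10 for Slc40a1, 1.99 for Gpr34, 1.55 for P2ry12, 1.15 for Siglech, 0.92 for Serpine2, 5.43 for Adcy8, 5.72 for Duoxa1, 3.35 for Ptn and 3.50 for Tnfrsf17. Clock genes had 3.48 (Nr1d1), 2.29 (Nr1d2), 3.17 (Dbp), 1.54 (Tef) and 3.1 (Hlf). Cell cycle genes had 3.85 (Tk1), 3.33 (Ccne2), 1.37 (Rfc3), 3.80 (Top2a), 2.71 (Cdk1), 4.52 (Bub1), 1.70 (Mad2l1) and 4.76 (Pclaf).

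Single libraries stood far from the other 3 of their group, with a gap over Dixon's critical value for 4 samples, which chance gives in about 1 of 20 groups. In Ctrl-PBS replicate 3, the library with the most neutrophil signal, these were C5ar1 (470 CPM), Slfn2 (158 CPM), Plin2 (98.3 CPM), Cdk1 (17.9 CPM), Pclaf (17.0 CPM), Il1b (300 CPM), Tnf (73.7 CPM) and Saa3 (0.404 CPM). In Ctrl-LPS replicate 1, the other library with raised neutrophil markers, they were Msr1 (415 CPM), C3ar1 (1010 CPM), Top2a (3.12 CPM), Il1b (487 CPM), Tnf (296 CPM) and Cd74 (812 CPM). Ctrl-LPS replicate 3 stood apart in Adcy8 (0.264 CPM) and Duoxa1 (0.502 CPM), Ctrl-PBS replicate 4 in Arg1 (0.643 CPM) and Ctrl-PBS replicate 1 in Dbp (11.3 CPM). In GW-CBD-LPS these were Ms4a4a in replicate 2 (15.7 CPM), Bub1 in replicate 1 (6.39 CPM) and Mcm7 in replicate 3 (38.7 CPM). The part of neutrophil RNA in these values was not tested.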

How the results depend on the processing

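None of the 327 differences between responses changed sign under any alternative run, but their number did. It was 318 with RLE size factors, 281 without a filter, 336 over the 15 libraries alone, 888 with DESeq2, 2194 with limma-voom, 53 without GW-CBD-LPS replicates 3 and 4, and 105 to 510 with 1 library left out. Genes past the threshold for LPS in the CBD-treated exposed mice, 69 in edgeR, were 344 with DESeq2, 3779 with limma-voom, 23 over the 15 libraries alone, 155 without the libraries of raised neutrophil signal, 136 without GW-CBD-LPS replicates 3 and 4, and 0 to 260 with 1 library left out. For control mice, 3378 in edgeR, leaving out 1 library gave 2384 to 3488. Between the arms without LPS the count of 0 became 7 with DESeq2, 15 with limma-voom and 0 to 1 with 1 library left out. With LPS the count of 2331 became 4736 with limma-voom and ran from 1261, without Ctrl-LPS replicate 1, to 2772. The difference of Ifit3, 0.10, was 0.00 with a replicate block, -0.01 without Ctrl-PBS replicate 1, -0.09 and -0.02 without Ctrl-LPS replicates 2 and 3, and -0.02 without GW-CBD-PBS replicate 4, in a range of -0.09 to 0.56 with 1 library left out. That of Il1b, -0.74, was 0.02 without GW-CBD-PBS replicate 3 and -1.75 without Ctrl-PBS replicate 3, and that of Cd74, 0.42, was -0.03 without GW-CBD-LPS replicates 3 and 4. Over the named genes, 449 values under alternatives other than leaving out 1 library kept their direction and call, 81 lost and 28 gained a call, and 2 reversed. With 1 library left out 834 values kept their direction and call, 200 lost and 11 gained a call, and 5 reversed. The cause of these changes was not tested.

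Replicate numbers showed little sign of pairing the libraries. Of 21 same-numbered pairs 3 had correlated deviations over 0.1 (range -0.23 to 0.21), and 3 of 15 libraries correlated best with their own number. With so few libraries per group this check cannot tell whether the numbers mark a pairing. With the replicate number as a block 236 differences passed, 217 of them among the 327, and the CBD-treated exposed arm had 0 calls.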
